A study of Mus musculus with 2 samples.

Results

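The contractile and actin-binding proteins of smooth muscle and of myofibroblasts are described here through 10 genes measured in a culture of mouse embryonic stem (ES) cells: Acta2, Tagln, Cnn1, Cnn2, Myl9, Tpm1, Tpm2, Actg2, Lmod1 and Des. Every probe set whose platform annotation named exactly 1 of these symbols was taken, which gave 19 probe sets for the 10 genes. The array held 45101 probe sets, and 18194 genes had a probe set with 1 gene symbol. The samples were 2 Affymetrix arrays of 1 group, the ES cell line of genotype Del1.3MbWBS, which lacks 1.3 Mb of the region deleted in Williams-Beuren syndrome. The labels name both as biological replicates of this 1 line and leave unstated whether the cultures were separate, and their spread may therefore be technical in part. Both came from cells grown on a feeder layer in medium with 20% serum replacement and LIF, the cytokine that keeps mouse ES cells undifferentiated, and the labels do not state that feeder cells were removed before Trizol extraction. Cells without the deletion were not analysed here, so the values describe levels and their reproducibility, with no comparison of genotypes and no p-value. None of the 10 genes lies on mouse chromosome 5, which carries the Williams-Beuren segment, by the reference gene table.

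Smooth muscle cells contract when myosin, switched on by phosphorylation of its regulatory light chain, pulls on actin filaments that are coated with tropomyosin and bound by calponin and transgelin. Myofibroblasts are fibroblasts that have gained part of this apparatus, above all alpha smooth muscle actin, as happens in wound healing and in culture on stiff plastic. Many of these genes are activated by serum response factor (SRF), which binds a DNA motif called the CArG box together with myocardin or the related MRTF coactivators. Fibroblasts are the usual feeder cells of mouse ES cultures.

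Levels are the deposited log2 values from RMA (robust multi-array average), a method that corrects background, equalises the arrays and summarises the probes of a set, and stand as replicate 1 and replicate 2 or as mean ± SD (n = 2). Above background means that the mean and the value on each array exceeded a threshold, the 95th percentile over 38 genes of olfactory receptors, as genes without an expected transcript; for the mean it was 5.59. Since affinity varies between probes, levels are not ranked from gene to gene. The brightest probe set represented a gene that had more than 1. All 10 contractile genes were above background, as were 68.4% of the 18194 genes measured. Of their 19 probe sets 17 were above background, against 61.8% of all probe sets with 1 gene symbol. As these arrays hold the RNA of a whole culture, fewer cells of a type and less RNA per cell cannot be told apart.

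Actin forms the thin filament of smooth muscle from products of a pair of genes, Acta2 and Actg2. Acta2, which encodes alpha smooth muscle actin, the usual marker of myofibroblasts, was at 14.30 on replicate 1 and 14.29 on replicate 2 on probe set 1416454_s_at. Replicate 2 minus replicate 1 was -0.0094 there, the smallest difference of any contractile probe set. On probe set 1444105_at Acta2 was at 7.78 and 7.82, and on 1456658_at at 5.72 and 5.58. The mean of the dimmest of these was 0.059 log2 units above the threshold. Its value on replicate 2 was 5.582, against a threshold of 5.581 for that array. It lost its call with the 99th percentile of the reference genes. The bright value comes from a probe set whose suffix marks probes shared between transcripts. Actin genes are alike in coding sequence, so transcripts of other actin genes may add to that value, which was not tested. Without shared probe sets the level of Acta2 was 7.80. Actg2, which encodes the gamma actin of visceral smooth muscle, was at 9.52 and 9.62 on its only probe set, 1422340_a_at.

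The promoter of Acta2 is shown because it carries CArG box matches, in capitals, close to the gene start. The window runs from 250 bases before to 50 bases after the start in the RefSeq table (build GRCm38.p6), at chr19:34255324-34255623 on the minus strand.
Acta2: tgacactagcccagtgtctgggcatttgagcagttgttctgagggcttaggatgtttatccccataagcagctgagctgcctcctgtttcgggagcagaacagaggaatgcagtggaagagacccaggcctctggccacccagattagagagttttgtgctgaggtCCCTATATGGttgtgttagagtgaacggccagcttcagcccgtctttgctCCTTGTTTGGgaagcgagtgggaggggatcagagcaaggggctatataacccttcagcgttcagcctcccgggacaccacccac
It held 2 matches with 1 mismatch each, CCCTATATGG from base -84 to base -75 and CCTTGTTTGG from base -34 to base -25, and none without a mismatch. Bases are counted from the annotated start, which was not checked against transcript data, so the distances hold for that start only. These are matches of letters and do not show that SRF was bound.

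Transgelin and the calponins bind along the actin filament. Tagln, which encodes transgelin (SM22 alpha), an early marker of smooth muscle, was at 13.84 on replicate 1 and 13.88 on replicate 2. Cnn1, which encodes the calponin of differentiated smooth muscle, was at 10.94 and 10.97. Cnn2, which encodes the calponin found in fibroblasts and other non-muscle cells as well as in smooth muscle, was at 12.32 and 12.33. Each of these genes had 1 probe set, none of them marked as shared, and the replicates differed by at most 0.036 log2 units in all 3.

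The Cnn2 promoter is shown because it holds a CArG box without a mismatch, CCTTATAAGG, from base -56 to base -47. The window lies at chr10:79988350-79988649 on the plus strand.
Cnn2: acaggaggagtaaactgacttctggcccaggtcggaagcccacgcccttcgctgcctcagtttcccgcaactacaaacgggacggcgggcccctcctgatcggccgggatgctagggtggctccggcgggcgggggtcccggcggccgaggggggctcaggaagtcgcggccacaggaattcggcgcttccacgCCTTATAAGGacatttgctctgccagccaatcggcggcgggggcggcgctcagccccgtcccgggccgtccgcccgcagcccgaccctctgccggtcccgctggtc
In the same window of Cnn1 no match was found, even with 1 mismatch allowed.

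Myosin is represented by Myl9, which encodes the regulatory light chain that myosin light chain kinase phosphorylates in smooth muscle. It was at 12.56 on replicate 1 and 12.60 on replicate 2, a mean of 12.58 ± 0.025, 6.99 log2 units above the threshold. Its promoter is shown for the CArG box without a mismatch, CCTAATAAGG from base -161 to base -152, and for a second match with 1 mismatch, CCTTGTAAGG from base -99 to base -90. The window lies at chr2:156775214-156775513 on the plus strand.
Myl9: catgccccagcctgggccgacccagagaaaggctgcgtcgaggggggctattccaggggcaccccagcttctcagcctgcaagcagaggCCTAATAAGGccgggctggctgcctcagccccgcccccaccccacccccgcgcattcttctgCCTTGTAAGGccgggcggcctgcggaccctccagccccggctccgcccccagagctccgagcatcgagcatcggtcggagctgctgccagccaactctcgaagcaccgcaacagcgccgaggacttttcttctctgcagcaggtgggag

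Tropomyosins lie in the groove of the actin filament and control the access of myosin. Tpm1, which encodes alpha tropomyosin, had 4 probe sets. It was at 13.59 and 13.61 on 1423049_a_at and at 13.35 and 13.34 on 1423721_at. On 1456623_at it was at 8.87 and 8.999, and on 1447713_at at 3.80 and 3.97, below the threshold on both arrays. Tpm1 was thus far above background on 3 probe sets and not on the fourth. Tpm2, which encodes beta tropomyosin, was above background on all 4 of its probe sets. It was at 13.002 and 12.96 on 1419738_a_at, 12.45 and 12.51 on 1425028_a_at, and 9.71 and 9.86 on 1449577_x_at. The probe set 1419739_at, the only one of Tpm2 not marked as shared, was at 6.60 and 6.55. With unshared probe sets alone the level of Tpm1 was 13.35 and that of Tpm2 6.57. The suffix _a_at can mark probes shared only by transcripts of the same gene, so these are not taken as the more specific levels. Both genes give several transcripts by alternative splicing, and which of them each probe set reads was not resolved here.

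The Tpm1 promoter is shown for its 2 CArG box matches with 1 mismatch, CCATATATAG from base -221 to base -212 and CCAAAAAAGT from base -80 to base -71. The window belongs to 1 of the starts annotated for the gene and lies at chr9:67049164-67049463 on the minus strand.
Tpm1: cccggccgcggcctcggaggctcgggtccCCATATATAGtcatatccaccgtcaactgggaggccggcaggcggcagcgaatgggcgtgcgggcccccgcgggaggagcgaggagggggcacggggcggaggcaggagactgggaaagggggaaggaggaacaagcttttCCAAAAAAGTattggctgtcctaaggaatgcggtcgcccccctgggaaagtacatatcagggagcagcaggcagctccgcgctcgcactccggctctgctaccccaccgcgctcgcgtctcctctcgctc
The window of Tpm2 had no match with up to 1 mismatch.

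A filament nucleator and an intermediate filament protein complete the set. Lmod1, which encodes leiomodin 1, a nucleator of actin filaments in smooth muscle, was at 7.88 on replicate 1 and 8.01 on replicate 2, a margin of 2.35 log2 units. Des, which encodes desmin, the intermediate filament protein of muscle cells, was at 7.34 and 7.12 on 1426731_at, a margin of 1.64 log2 units. On its other probe set, 1426732_at, Des was at 4.29 and 4.57, below the threshold on both arrays. The replicates moved in opposite directions on the Des probe sets: replicate 2 minus replicate 1 was -0.22 on the first and 0.29 on the second.

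The Lmod1 promoter is shown because both of its CArG box matches, CTTTAAAAGG from base -189 to base -180 and CTAAATTTGG from base -164 to base -155, have 1 mismatch and lie within the upstream part of the window. It lies at chr1:135324563-135324862 on the plus strand.
Lmod1: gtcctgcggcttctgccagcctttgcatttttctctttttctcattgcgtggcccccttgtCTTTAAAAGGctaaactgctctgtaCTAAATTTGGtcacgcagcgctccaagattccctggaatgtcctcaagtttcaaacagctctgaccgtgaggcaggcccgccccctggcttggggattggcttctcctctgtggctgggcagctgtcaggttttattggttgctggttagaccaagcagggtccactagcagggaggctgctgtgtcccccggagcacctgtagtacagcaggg
The Des window held no match with up to 1 mismatch.

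**Figure D1:**
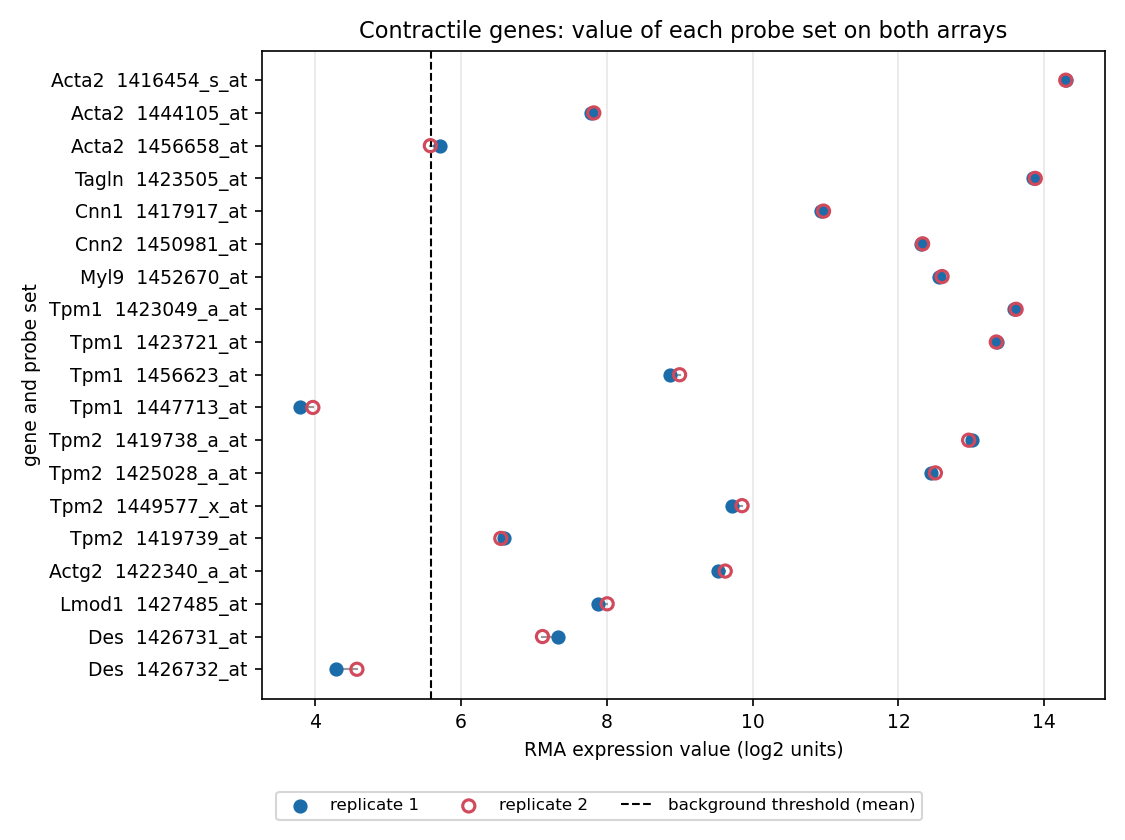
RMA log2 value (horizontal axis) of each of the 19 probe sets of the 10 contractile genes (vertical axis), with filled circles for replicate 1, open circles for replicate 2 and a dashed line at the background threshold of 5.59. The circles of a probe set nearly coincide, and 1 probe set each of Tpm1 and Des lies left of the line.

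Levels differed between the probe sets of each of the 4 genes with several. The highest and lowest means differed by 8.65 log2 units over the 3 probe sets of Acta2, against a median of 2.66 over the 2366 genes with 3 probe sets, and 0.423% of those genes had a range as wide. For Tpm1 the range was 9.71 log2 units over 4 probe sets and for Tpm2 it was 6.41, against a median of 3.45 over 1093 genes with 4. A range as wide as that of Tpm1 was found in 0.274% of these genes, and one as wide as that of Tpm2 in 8.05%. The 2 probe sets of Des differed by 2.80 log2 units, against a median of 1.34 over 4694 genes with 2, and 22.8% of those had a range as wide. Some probe sets of Tpm1 and Des were above background and others were not, which was also so for 61.2% of genes with 4 probe sets and 31.1% of genes with 2. A gene whose brightest probe set is far above background can have a wider range, so these shares describe the probe sets and not the genes.

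Promoter windows were available for 8 of the 10 genes, all but Tagln and Actg2. A CArG box without a mismatch was present in 2 of the 8, those of Cnn2 and Myl9, against 535 of all 32851 windows in the table (1.63%). With up to 1 mismatch, 5 of the 8 held a match, against 21.1% of all windows, and 4 of the 8 held at least 2, against 3.70%. The motif reads the same on both strands, so 1 pass covers both, and matches could overlap. Beyond the contractile genes, an unmismatched CArG box was found in 3 of 16 windows of their relatives in the same protein families, those of Acta1, Actc1 and Actg1. In the windows of further smooth muscle genes it was found in 2 of 22, those of Myl6 and Vcl. With up to 1 mismatch the relatives had a match in 7 of 16 windows, which come from 14 genes, and the further smooth muscle genes in 6 of 22 windows, from 18 genes (27.3%, near the share of all windows). No test was made on these counts, and the members were not drawn at random.

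**Figure D2:**
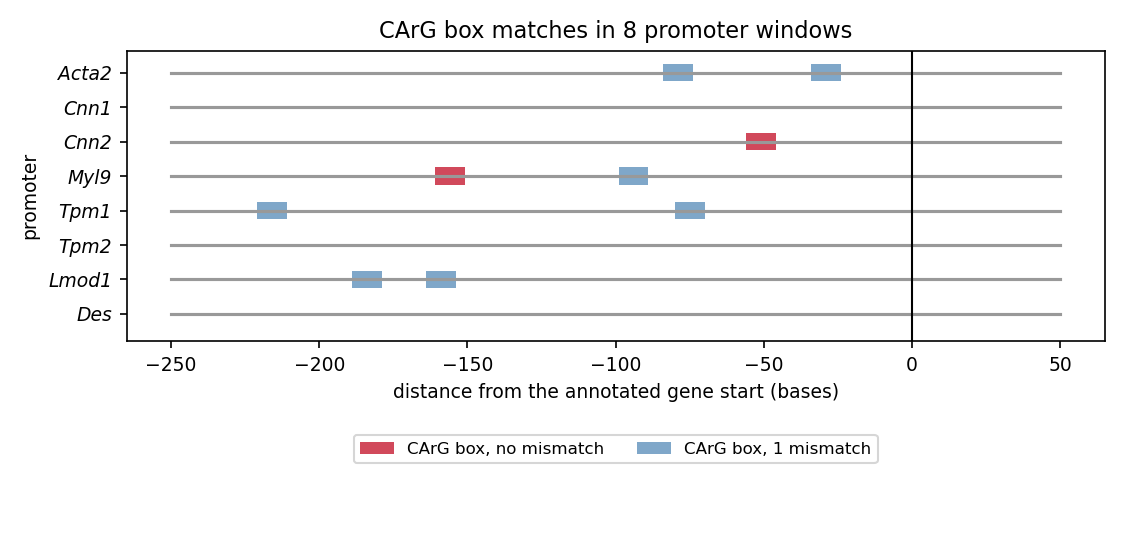
Distance from the annotated gene start in bases (horizontal axis, start at 0) of CArG box matches in the promoter windows of 8 contractile genes (vertical axis), red without a mismatch and blue with 1. Matches without a mismatch are those of Cnn2 and Myl9, and all 9 matches lie upstream of the start.

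The differences between replicates on the contractile probe sets were of a size usual on these arrays. Replicate 2 minus replicate 1 ranged from -0.22 (Des, 1426731_at) to 0.29 (Des, 1426732_at), with a median of 0.035 log2 units, against a median of 0.0070 over all probe sets. None of the 19 differed by 1.5-fold or more, as 0.191% of all probe sets did. Higher values on replicate 2 were seen in 13 of the 19, against 52.4% of all probe sets. The difference was then divided by the SD of the same difference among probe sets of like level, in 20 bins. This SD was 0.192 log2 units in the bin where it was highest and 0.0568 in the brightest bin. None of the 19 exceeded 2 SD, against 4.92% of all probe sets, and the one nearest to it was Tpm2 on 1449577_x_at, at 1.95. With only 19 probe sets and shares this small, finding none is not a trait of the contractile genes. Among the 9 probe sets with means above 10, the difference was at most 0.054 log2 units, and among the other 10 it was between 0.042 and 0.29.

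**Figure D3:**
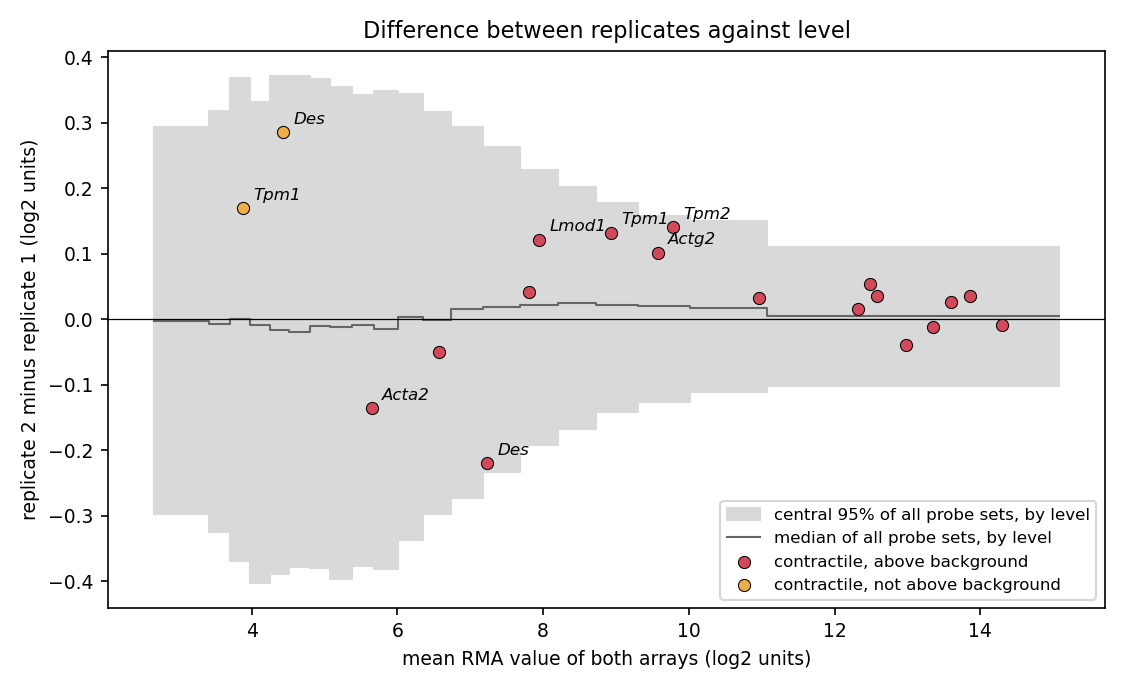
Replicate 2 minus replicate 1 in log2 units (vertical axis) against the mean RMA value of both arrays in log2 units (horizontal axis) for the 19 contractile probe sets, red where above background and yellow where not. The grey band is the central 95% of all 45101 probe sets in 20 bins of level and the grey line their median; all 19 points lie inside the band.

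Most relatives of these genes in the same protein families were also measured above background, 14 of 17, against 68.4% of all genes. The count was near the share of all genes under some settings: 11 of 17, against 61.5% of all genes, with vomeronasal and taste receptor genes as the reference, where Actc1, Tagln3 and Tmod1 lost their calls, and 10 of 14, against 69.2%, with unshared probe sets. Of the other actin genes, those of the non-muscle cytoskeleton were at 14.82 ± 0.0021 (Actb) and 14.35 ± 0.013 (Actg1). The skeletal muscle actin gene Acta1 was at 8.11 ± 0.0044 and the cardiac actin gene Actc1 at 6.22 ± 0.33. Actc1 differed most between the replicates among the 17, at 5.98 and 6.45. The actin genes are alike in coding sequence, and whether their probes tell them apart was not tested. Of the transgelin family Tagln2, expressed in many cell types, was at 11.56 ± 0.00078 and the neuronal Tagln3 at 5.96 ± 0.014. The widely expressed calponin gene Cnn3 was at 13.60 ± 0.034, the non-muscle regulatory light chain genes Myl12a at 13.80 ± 0.033 and Myl12b at 12.07 ± 0.017, and the tropomyosin genes Tpm3 at 12.90 ± 0.028 and Tpm4 at 12.97 ± 0.0068. The non-muscle members of each of these families were thus above background on their brightest probe set, beside the smooth muscle members. Tagln2 was above background on 2 of 3 probe sets, Myl12b on 1 of 2 and Tpm3 on 4 of 5.

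In the leiomodin and tropomodulin family the picture was mixed. The striated muscle leiomodins were not above background, at 3.67 ± 0.055 for Lmod2 and 3.80 ± 0.13 for Lmod3, while Lmod1 was. Tropomodulins cap the slow-growing end of actin filaments: the widely expressed Tmod3 was at 9.42 ± 0.043, Tmod1 was at 6.11 ± 0.037, and the neuronal Tmod2 was not above background, at 5.13 ± 0.0018. Tmod3 was above background on 3 of 5 probe sets. Vim, which encodes vimentin, the intermediate filament protein of mesenchymal cells and a relative of desmin, was at 14.28 ± 0.020.

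Of 19 further genes of the smooth muscle contractile apparatus, 18 were above background, against 68.4% of all genes. Myh11, which encodes smooth muscle myosin heavy chain and marks the mature cell, was at 7.01 ± 0.037 on the brighter of its 2 probe sets and was not above background on the other. The essential light chain gene Myl6 was at 9.45 ± 0.042, the myosin light chain kinase gene Mylk at 9.17 ± 0.071 and the caldesmon gene Cald1 at 13.47 ± 0.037. Mylk was above background on 2 of 3 probe sets. Kcnmb1, which encodes a potassium channel subunit of smooth muscle, was the 1 gene not above background, at 5.06 ± 0.19.

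Regulators of these genes were above background in 13 of 14 cases, against 68.4% of all genes. Srf was at 10.005 ± 0.041, the coactivator genes Mrtfa at 7.83 ± 0.15 and Mrtfb at 9.74 ± 0.0022, and Elk1, which encodes a partner of SRF that competes with the coactivators, at 6.59 ± 0.22. Elk1 was above background on 2 of 3 probe sets. Myocd, which encodes myocardin, the coactivator of cardiac and smooth muscle, was the exception, at 4.74 ± 0.14, and neither of its 2 probe sets was above background.

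Markers of cell types that the culture could hold were measured on the same arrays. All 10 ES cell markers were above background, with Pou5f1 at 12.63 ± 0.020, Nanog at 12.11 ± 0.063, Sox2 at 12.11 ± 0.047 and Zfp42 at 12.39 ± 0.035. So were all 14 measured genes of fibroblasts and myofibroblasts, from 8.81 to 14.86, with Postn at 13.13 ± 0.0011, Tnc at 12.10 ± 0.075, Fn1 at 13.86 ± 0.051 and Col1a1 at 12.67 ± 0.021. Of the pericyte markers 6 of 8 were, close to the 68.4% of all genes, and with unshared probe sets 4 of 7 were, against 69.2% of all genes. Rgs5 was at 7.16 ± 0.029, Cspg4 at 8.68 ± 0.060, Mcam at 8.56 ± 0.072 and Notch3 at 8.75 ± 0.0088. Rgs5 was above background on 2 of 4 probe sets and Notch3 on 1 of 2. The channel subunit genes Kcnj8 (4.93 ± 0.072) and Abcc9 (4.59 ± 0.047), known as pericyte markers, were not. The RNA thus held transcripts of ES cell and of fibroblast markers together, and from which cells the contractile transcripts came was not tested.

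Striated muscle and endothelial lists had a lower share of genes above background than the 68.4% of all genes. In skeletal muscle 5 of 13 were, with Ckm at 6.26 ± 0.18, Tnni2 at 6.37 ± 0.13, Mylpf at 10.37 ± 0.052 and Ttn at 7.10 ± 0.12. Tnni2 was above background on 1 of 3 probe sets and Ttn on 2 of 6. The myogenic factor genes Myod1 (4.67 ± 0.22) and Myf5 (2.97 ± 0.023) were not. In cardiac muscle 6 of 14 were, all with means of 6.73 or below, with Tbx5 at 6.18 ± 0.10, Myh7 at 5.80 ± 0.069, Myl3 at 5.99 ± 0.042 and Myl4 at 6.73 ± 0.21. Tbx5 was above background on 1 of 2 probe sets and Myl3 on 1 of 3. Nkx2-5 exceeded the threshold only on replicate 2 (5.61 ± 0.092), and Myh6 was at 4.63 ± 0.17. In endothelium 2 of 6 were, Tek at 6.15 ± 0.19 and Robo4 at 5.83 ± 0.084, while the cadherin gene Cdh5 (4.47 ± 0.087) and Tie1 (3.87 ± 0.064) were not. With vomeronasal and taste receptor genes as the reference, which set the threshold at 6.08, the cardiac count was 1 and the endothelial count 1. Of all genes, 61.5% were above background in that setting.

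**Figure D4:**
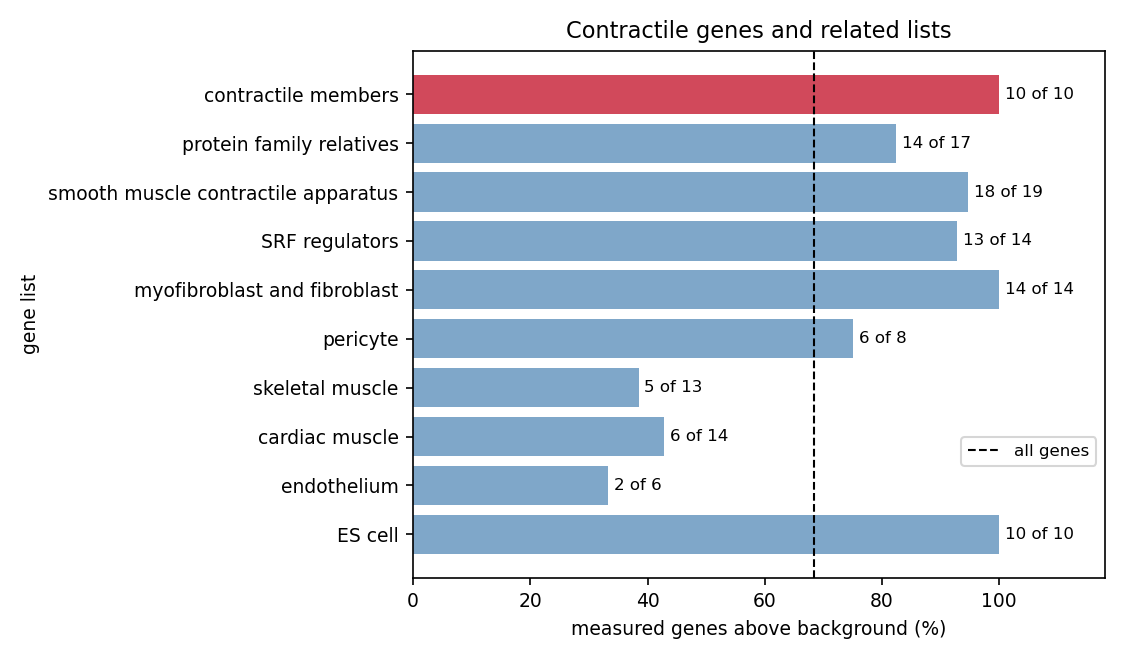
Share of measured genes above background in percent (horizontal axis) for the 10 contractile genes, in red, and 9 related lists, in blue (vertical axis), with counts beside the bars and a dashed line at 68.4%, the share of all genes. The contractile, fibroblast and ES cell lists reach 100%, and the skeletal muscle, cardiac muscle and endothelium lists lie left of the line.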

How the data were processed

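Total RNA (6 µg per sample, per the labels) was measured on 2 arrays of 1 group, each holding 45101 probe sets. The deposited values are log2 expression values made by the authors with RMA, per the submitters' processing notes; which version, and over which arrays, is not given in the sources used here. Medians were 6.01 on both arrays, and 0 columns were left unused. The number of arrays limits the precision. Probe sets were named through the platform annotation: 34958 had 1 gene symbol, 932 several and 9211 none, and 34754 of the first matched the reference gene table by identifier, with 0 symbols changed.

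Background calls, differences between replicates and promoter matches were computed in Python 3.11.15 with numpy 2.4.6 and pandas 2.3.3, and the code for calls and differences was run on simulated data. Its silent genes were drawn from the olfactory receptor values that set the threshold. Its expressed genes and shifted differences lay far beyond the cutoffs, so it does not bear on values near the threshold. The background threshold was the 95th percentile over the brightest probe sets of 38 olfactory receptor genes. Alternatives were the 99th percentile, vomeronasal and taste receptor genes, all olfactory receptor probe sets, the median of a gene's probe sets, unshared probe sets (without _a_at, _s_at and _x_at), each array alone, loess (fraction 0.3) and centring. Since _a_at can mark transcripts of the same gene, the unshared setting can also drop probe sets that read a single gene, such as that of Actg2. Every gene of the family relatives was named, and of each other list the first 4 called and the first 2 not called, in list order. The members and lists were chosen with earlier results of these data known. Loxl2 was listed and had no probe set of that 1 gene. Some planned items are not reported here. A planned comparison of protein sequences was not made here.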

Additional observations from a re-analysis of the deposited data

How the results depend on the processing

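Of 96 alternative values for counts and for the difference between replicates, 90 stayed within 1.5 times the reported count or SD, or, for the median difference, within the spread of the contractile differences, and 6 did not. All measured contractile genes were above background under every alternative, 9 of 9 with unshared probe sets, where Actg2 has none, and 10 of 10 otherwise. Of all genes, between 61.5% (vomeronasal and taste receptors) and 69.3% (replicate 1 alone) were above background under these alternatives. The contractile probe sets above background numbered 17 of 19 in the main setting, against 61.8% of all probe sets with 1 gene symbol. They numbered 16 with the 99th percentile or the vomeronasal and taste receptors, 17 with each array alone, and 11 of 13 with unshared probe sets, where fewer were counted. The share of all probe sets was not computed under these alternatives. With the vomeronasal and taste receptors the cardiac count was 1 in place of 6 and the endothelial count 1 in place of 2, at a higher threshold (6.08). The skeletal muscle count of 5 was 3 when the median over probe sets stood for a gene and 3 of 12 with unshared probe sets; the cause was not tested. CArG box promoters numbered 2 of 8, against 1.63% of all windows, or 5 with up to 1 mismatch, against 21.1%. When that median stood for a gene, the levels of 4 contractile genes moved by more than their SD: 7.80 in place of 14.30 for Acta2, 11.14 in place of 13.60 for Tpm1, 11.13 in place of 12.98 for Tpm2 and 5.83 in place of 7.23 for Des. The median difference between replicates was 0.035 log2 units, 0.027 after loess and 0.037 after centring. No paired analysis was possible because there is 1 group only. Near the threshold, signal over background is the limit: a silent gene and a weak one look alike.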

Other observations

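Mylpf, which encodes the regulatory light chain of fast skeletal muscle, was at 10.33 on replicate 1 and 10.41 on replicate 2, on its only probe set, while none of the 4 myogenic factor genes Myod1, Myf5, Myog and Myf6 was above background, with means from 2.97 to 4.73. Among the family relatives and the further smooth muscle genes, Acta1, Actc1, Actg1, Myl6 and Vcl had an unmismatched CArG box. Acta1 was at 8.12 and 8.11, Actc1 at 5.98 and 6.45 and Actg1 at 14.36 and 14.34. Myl6 was at 9.48 and 9.42, and Vcl, which encodes the focal adhesion protein vinculin, at 13.05 and 13.04. These observations were chosen after the values were seen, and no explanation was tested.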
